A study of Mus musculus with 6 samples.

Results

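Intraepithelial T cell and cytotoxic genes are described here in mouse colon with and without Setd2. They are 10 genes taken by symbol: Cd3d, Cd3e, Cd3g, Cd8a, Itgae, Nkg7, Cd160, Gzma, Gzmb and Sh2d2a. Every probe that the platform annotation assigns to one of these symbols was used, which gave 16 probes for 9 genes, of 45281 probes and 19057 named genes on the array. Gzma had no probe under its symbol in that annotation and has no value here. The genes were chosen for their differences between Setd2 KO and control on these same arrays, so that contrast is given for them as a description with errors and without p-values.

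The samples were colon tissue of C57BL/6 mice aged 6 weeks, with 3 arrays from controls and 3 from mice labelled Setd2 KO, and no treatment is named. The labels do not give the allele, the cell type in which Setd2 was deleted or the genotype of the controls, and they do not say whether each array is a separate animal. Errors therefore measure the spread between these samples. Values are the authors' normalized intensities on Illumina bead arrays, either linear or as log2, and the lowest value in the table is exactly 1, called the floor below. Values at the floor cannot be ranked among themselves. The brightest Setd2 probe measured 35.7% of its control mean in KO, with KO arrays at 201, 119 and 146 against 374, 600 and 329. Dimmer Setd2 probes measured 47.4% and 62.8%, with log2 differences of -0.02 and -0.64. The groups overlapped on both, and control 2 was at the floor on the first. All 6 arrays share 1 median and 1 maximum. Control 2 had 41.6% of its probes at the floor, against 33.5% to 36.9% on the other arrays, and differences of the 10 genes are therefore also given without it.

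Intraepithelial lymphocytes are T cells that live between the epithelial cells of the gut. Most carry CD8, many use the gamma delta T cell receptor, and they hold cytotoxic granules ready for release. The CD3 chains carry the signal of the T cell receptor into the cell. The integrin chain encoded by Itgae pairs with that of Itgb7 and binds E-cadherin on epithelial cells, which retains the lymphocytes there. Granzymes are serine proteases that perforin delivers into target cells. Setd2 encodes the histone methyltransferase that trimethylates H3K36.

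The CD3 genes lie side by side on chromosome 9, and Cd3d and Cd3g point away from each other. Their promoter windows are shown because these 3 neighbours did not give 1 common difference, and that of Nkg7 is shown beside them as a granule gene. Each window holds 250 bases before and 50 after the start of the gene, along the gene's strand, from RefSeq on GRCm38.p6. Capitals mark matches on either strand to the RUNX letters TGTGGT, the ETS letters AGGAAG, the T-box letters AGGTGTGA and the E-box letters CACCTG. The windows are chr9:44980382-44980681 on the minus strand for Cd3g, chr9:44981536-44981835 on the plus strand for Cd3d, chr9:45009562-45009861 on the minus strand for Cd3e and chr7:43436888-43437187 on the plus strand for Nkg7.
Cd3g: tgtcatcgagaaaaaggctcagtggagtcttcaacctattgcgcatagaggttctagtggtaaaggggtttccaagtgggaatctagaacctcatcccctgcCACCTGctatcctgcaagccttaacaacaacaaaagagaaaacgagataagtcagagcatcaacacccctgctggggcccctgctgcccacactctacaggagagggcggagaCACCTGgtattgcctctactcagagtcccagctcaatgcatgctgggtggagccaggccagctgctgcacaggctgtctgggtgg
Cd3d: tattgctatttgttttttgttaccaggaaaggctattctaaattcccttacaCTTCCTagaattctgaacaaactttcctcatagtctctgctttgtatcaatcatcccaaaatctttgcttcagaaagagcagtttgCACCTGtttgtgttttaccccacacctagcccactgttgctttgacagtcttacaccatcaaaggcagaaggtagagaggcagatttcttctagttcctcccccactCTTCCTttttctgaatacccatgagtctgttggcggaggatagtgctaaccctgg
Cd3e: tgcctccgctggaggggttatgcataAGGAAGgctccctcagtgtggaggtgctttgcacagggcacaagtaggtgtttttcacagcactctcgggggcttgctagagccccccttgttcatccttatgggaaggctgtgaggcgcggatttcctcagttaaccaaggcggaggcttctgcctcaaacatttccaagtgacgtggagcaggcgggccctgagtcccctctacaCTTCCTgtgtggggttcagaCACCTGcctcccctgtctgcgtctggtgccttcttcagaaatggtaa
Nkg7: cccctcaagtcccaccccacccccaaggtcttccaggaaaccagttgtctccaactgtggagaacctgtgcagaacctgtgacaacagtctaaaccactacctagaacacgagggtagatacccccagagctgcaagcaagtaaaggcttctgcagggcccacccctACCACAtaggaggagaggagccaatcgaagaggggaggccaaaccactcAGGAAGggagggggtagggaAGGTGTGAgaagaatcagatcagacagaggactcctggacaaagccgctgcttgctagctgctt

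Promoter windows were found for 8 of the 10 genes, 9 windows in all because Cd160 has 2 starts. TGTGGT was in 5 of the 9 and in 16.8% of all 32851 windows in the table, and AGGAAG was in 5 and in 35.4%. CACCTG was in 5 and in 20.2%. AGGTGTGA was in 1, that of Nkg7, where it begins at base 237 of the window, and in 1.28% of all windows. In the Cd3d and Cd3e windows AGGAAG was found near the start, on the strand opposite to the gene's. These matches begin at bases 246 and 234 of the windows, and in the Cd3g window AGGAAG was not found. Of other spellings, the RUNX core TGTGGN was in 8 windows, against 55.8% of all. The ETS form GGAAGT was in 3, against 23.8%, and the longer ACCGGAAGT was in 0, against 1.1%. The T-box core GGTGTG was in 4, against 19%, and the E-box core CANNTG was in all 9, against 72.3%. The AP-1 letters TGANTCA were in 1, against 7.81%, and the STAT letters TTCNNNGAA were in 4, against 8.3%. The CRE letters TGACGTCA (1.79% of all) and the nuclear receptor half-site TGACCT (16.3%) were in none of the 9. Matches overlap between spellings of 1 family, and a match in letters is not a binding site.

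Of the receptor chains, Cd3d was lower on every KO array. Its probe measured 165, 142 and 107 on control 1, control 2 and control 3, and 48.7, 59.9 and 61.5 on KO 1, KO 2 and KO 3. The lowest control array thus stood above the highest KO array, by 0.80 on the log2 scale. On that scale control averaged 7.09 ± 0.32 (SD, n = 3) and KO 5.82 ± 0.18. The difference was -1.27 with a standard error of 0.39, and -1.23 without control 2. In a piece of colon, fewer T cells and less RNA per T cell cannot be told apart, here or for the genes that follow.

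Cd3e, the chain that pairs with Cd3d or Cd3g, was measured by 2 probes. The one used for the gene gave 69.9, 91.2 and 54.4 in control and 35.6, 47.0 and 64.2 in KO. KO 3 lay above control 3, so the groups overlapped, and the log2 difference was -0.56 (standard error 0.43). The second probe gave 61.9, 87.0 and 53.1 in control and 34.5, 39.9 and 36.3 in KO, with no overlap, and a difference of -0.84 (standard error 0.42, like those of all second probes from the fit over probes). The probes parted most on KO 3, which was the highest KO array on the first and not on the second. Without KO 3 the first probe differed by -0.78, and its groups no longer overlapped. Without KO 1 it differed by -0.36 and without control 2 by -0.37.

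Cd3g, which pairs with Cd3e in the complex, stood apart through 1 array. It measured 93.3, 11.7 and 65.3 in control and 39.8, 49.4 and 27.8 in KO. Control 2 was the lowest of all 6 arrays, while control 1 and control 3 were the highest. The means of 5.37 ± 1.60 (SD, n = 3) and 5.25 ± 0.42 differed by -0.13 (standard error 0.83), and without control 2 the difference was -1.04 with no overlap. It was 0.46 without control 1, 0.20 without control 3, 0.10 without KO 3 and -0.32 without KO 2, so neither direction nor size is fixed by these arrays.

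Cd8a encodes the co-receptor chain carried by most intraepithelial lymphocytes, and both of its probes were near the floor. The probe that passed the filter on dim probes measured 1, 4.41 and 1 in control and 2.84, 2.81 and 1.97 in KO. The other measured 4.91, 1 and 2.09 in control and 1.56, 1 and 1 in KO. Each probe had arrays of both groups at or close to the floor, and their mean differences of 0.61 and -0.91 point in opposite directions. No level of Cd8a can be read from them, and the label of this gene set rests on its other genes.

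Cd8b1, the partner chain of Cd8a, was not among the 10 genes. Its brightest probe measured 1356, 1563 and 1303 in control and 1754, 1402 and 1751 in KO, a log2 difference of 0.21 (limma adjusted p = 0.947). A second probe measured 293, 187 and 68.6 in control and 100, 71.2 and 58.4 in KO, a difference of -1.06 (standard error 0.64). The third was dimmer and differed by -1.02. In the dimmer 2 probes control 1 was highest and the groups overlapped, so the 3 probes of this gene do not share a direction.

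Sh2d2a, an adaptor of T cells that binds the kinase Lck, had the largest difference among the 8 genes past the filter. Its single probe measured 68.2, 53.6 and 44.9 in control and 18.6, 23.7 and 11.3 in KO. The gap between the lowest control and the highest KO array was 0.92 on the log2 scale. The means were 5.78 ± 0.30 (SD, n = 3) and 4.10 ± 0.54, a difference of -1.68 with a standard error of 0.45, and KO retained 31.2% of the control level. Leaving out each array in turn gave -1.91 to -1.38. With 16 added to every intensity before the log, the difference was -1.08, smaller than the -1.13 of Itgae.

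Itgae, whose product is known as CD103, had 6 probes, of which 2 were clearly above the floor. The brightest measured 108, 220 and 106 in control and 45.8, 54.4 and 60.9 in KO. The second measured 92.3, 201 and 84.4 in control and 35.8, 48.9 and 57.4 in KO. On both, control 2 was about as far above the other controls as these were above the KO arrays, and the groups did not overlap. The differences were -1.35 (standard error 0.45) and -1.32 (standard error 0.52), or -1.0 and -0.92 without control 2.

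The other 4 Itgae probes had at least 1 array at the floor each. One was at the floor on all 3 control arrays and measured 4.54, 3.88 and 6.87 in KO, which is the opposite direction and no fold change. Another measured 6.48, 1 and 14.1 in control and 5.93, 7.47 and 3.62 in KO. The remaining 2 did not exceed 8.65 on any array. Averaged over the 5 probes that passed the filter, Itgae differed by -0.23 in place of -1.35.

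Cd160, an Ig-family receptor of intraepithelial lymphocytes and NK cells that binds the product of Tnfrsf14, was the most uniform in KO. It measured 51.3, 111 and 51.8 in control and 30.8, 31.8 and 32.4 in KO. The KO values lay within 0.04 (SD, n = 3) of 4.98 on the log2 scale, and the control mean was 6.06 ± 0.64. The difference was -1.07 (standard error 0.45), and -0.70 without control 2, which held the highest value. The groups did not overlap with or without it.

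Nkg7 encodes a membrane protein of cytotoxic granules. It measured 157, 59.7 and 90.4 in control and 41.6, 33.8 and 42.1 in KO. Control 2 was the lowest control here, yet above every KO array. The means of 6.56 ± 0.70 (SD, n = 3) and 5.28 ± 0.18 differed by -1.28 (standard error 0.48), by -1.61 without control 2 and by -0.91 without control 1.

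Gzmb, the granzyme that cleaves caspases, was not measurable. Its single probe gave 1, 2.69 and 3.10 in control and 1, 6.51 and 1 in KO, did not pass the filter, and had arrays of both groups at the floor. The other granzymes, taken as a whole family after the values were seen, were dim as well. Over 11 probes of 9 granzyme genes the highest intensity on any array was 24.3, for Gzmn on control 2, and 10 of the 11 probes had at least 1 array at the floor. The exception, Gzmm, measured 8.57, 13.8 and 4.73 in control and 18.3, 13.9 and 9.32 in KO, with overlapping groups. Gzmg was near the floor and higher in KO, at 3.75, 4.72 and 4.99 against 1, 1 and 1.42. The granule gene of the set with a usable level was Nkg7 alone.

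**Figure D1:**
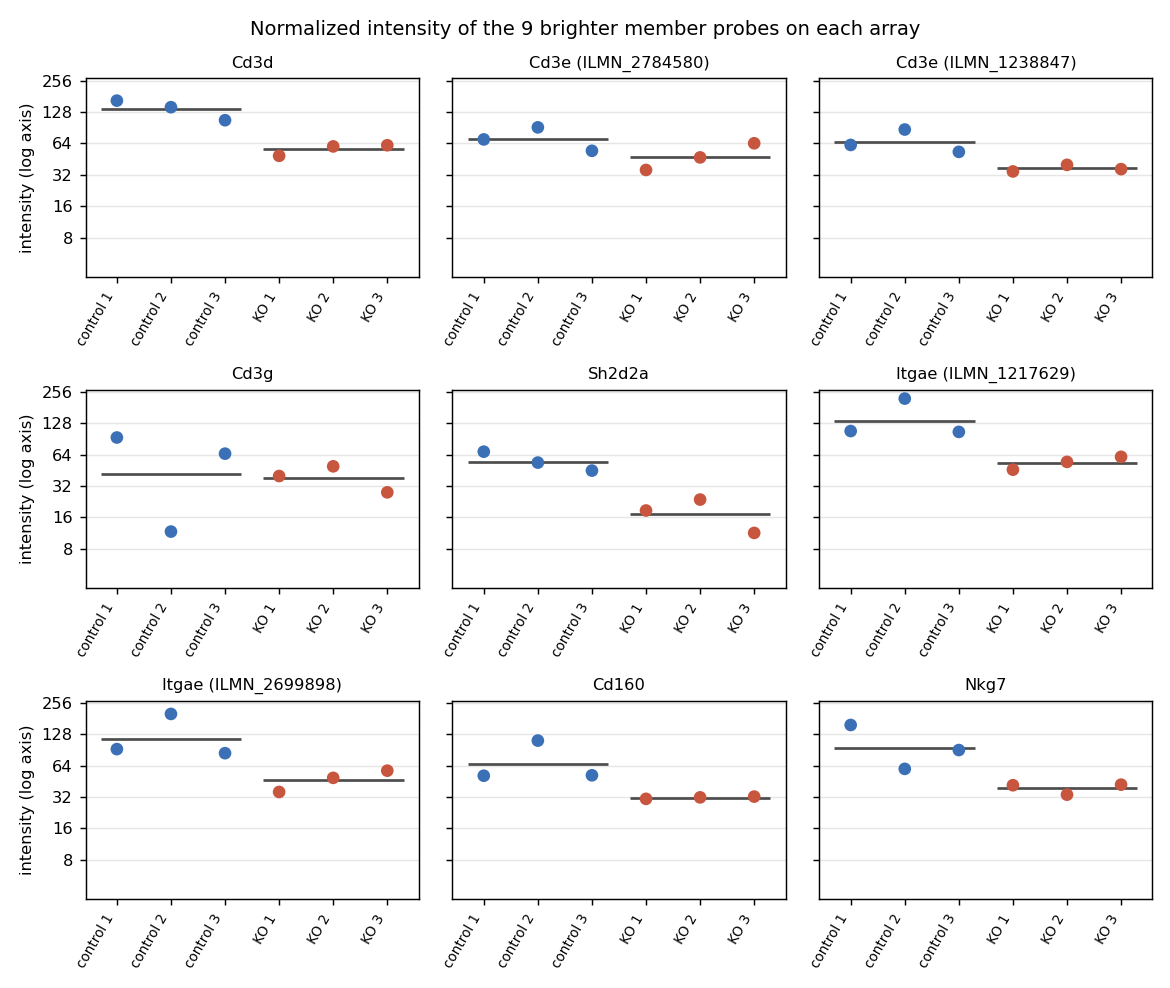
Normalized intensity (log axis) of the 9 probes of Cd3d, Cd3e, Cd3g, Sh2d2a, Itgae, Cd160 and Nkg7 that are brighter than 70% of all probes, on each of 3 control (blue) and 3 KO (red) arrays; lines are group means on the log scale. In 7 of the 9 panels every KO point lies below every control point, and the exceptions are the first Cd3e probe, through KO 3, and Cd3g, through control 2.

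Among the 16 probes, 13 passed the filter, a mean log2 intensity above the 40th percentile of all probes, and they represent 8 genes. Of these 8 genes, 7 had a lower mean in KO, and 5 (Cd3d, Sh2d2a, Itgae, Cd160 and Nkg7) had every KO array below every control array. Over all 18918 features, 55.4% had a lower mean in KO, 5.31% had every KO array below every control array and 3.38% had every KO array above. Among features above the 70th percentile of mean log2 intensity, where 7 of the 8 genes lie, 56% had a lower mean, 4.7% lay wholly below and 2.78% wholly above. Without control 2, 6 of the 8 genes lay wholly below, as did 6.89% of those brighter features, of which 49.4% had a lower mean. Since the genes were selected on this contrast, nothing is read from the counts. With limma's Benjamini-Hochberg adjusted p under 0.05, 0 of 18918 features (0%) were called, and the smallest adjusted p was 0.400. An unadjusted p under 0.05 was found for 814 features (4.3%), and for 2.64% with KO lower.

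The median difference over the 8 genes was -1.17, and -1.02 without control 2, beside medians of -0.09 and -0.00087 over all features. For 5 of the 8 genes the difference was -1 or lower, as it was for 3.33% of the features above the 70th percentile. Without control 2 these became 4 genes and 1.83%. The 7 brighter genes averaged a log2 intensity of 6.55, 6.21 and 6.13 in the controls, against 5.16, 5.36 and 5.23 in KO. Over every omission of 1 array, 6 or 7 of the 7 had a lower mean in KO and 5 or 6 did not overlap. Shares over all features were computed for the omission of control 2 alone, so nothing is read from these counts. Where 6 were lower, the gene whose mean changed side was Cd3g.

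**Figure D2:**
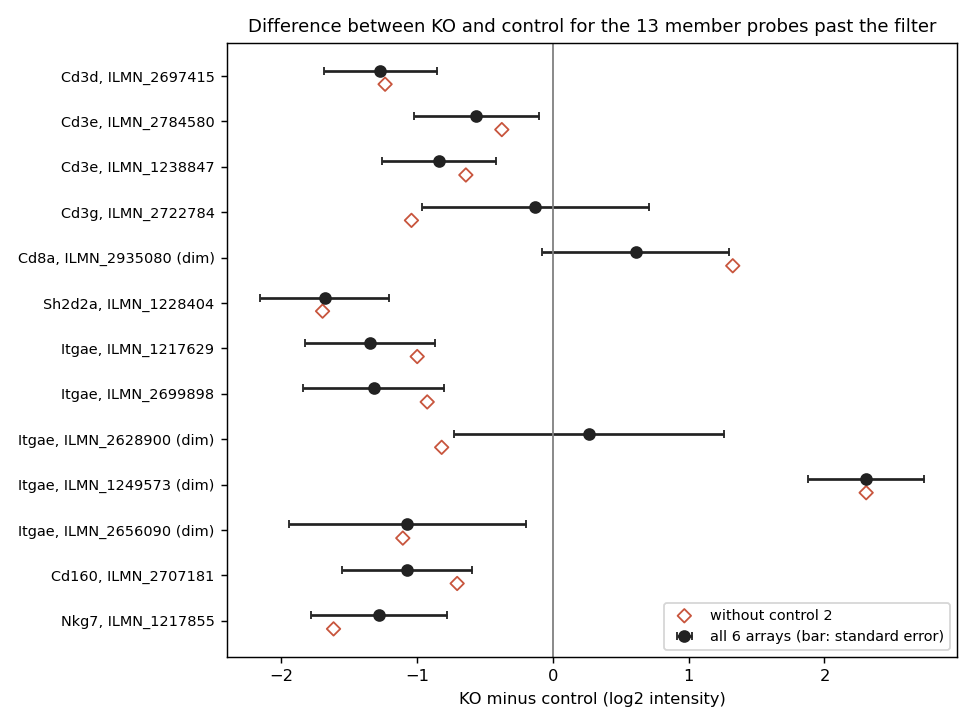
KO minus control in log2 intensity for the 13 probes that passed the filter. Dots are differences over all 6 arrays with the standard error from limma at the probe level, and diamonds are the differences without control 2. The brighter probes lie between -1.68 and -0.13, with Cd3g moving to -1.04 without control 2, and probes marked dim scatter to both sides of 0.

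Within the groups the genes did not rank the arrays alike. In control, Cd3d, Cd3g, Sh2d2a and Nkg7 were highest on control 1, while Cd3e, Itgae and Cd160 were highest on control 2. None of these 7 was highest on control 3, and 4 of them were lowest there. Among all features above the 70th percentile, 24.2% were highest on control 1, 52.2% on control 2 and 23.6% on control 3. Control 3 was the lowest control for 32.5% of them. In KO the highest array was KO 3 for 5 of the 7 and KO 2 for the other 2, and the lowest was KO 1 for 4. Among those same features 37.4% were highest on KO 3, 28.6% were highest on KO 2 and 35.9% were lowest on KO 1. The control SD exceeded the KO SD for 5 of the 7, against 79.7% of the features above the 70th percentile.

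The segments of the T cell receptor itself were scarcely measured, and their probes were gathered after values were seen. A bright Trbv13-2 probe measured 129, 1 and 66.0 in control and 49.7, 50.1 and 32.4 in KO. It shared the order of Cd3g, with control 1 and control 3 above every KO array and control 2 lowest. A dimmer Trbv13-2 probe past the filter did not, at 4.11, 5.06 and 4.04 in control and 2.46, 6.37 and 1 in KO. The gamma segment Trgv4 measured 8.74, 12.1 and 20.8 in control and 2.47, 6.94 and 4.50 in KO. Trgv7 was highest on control 2, at 21.9, and Trgv5 and Trgv6 were at the floor on at least 5 arrays. The brightest probe of the signalling chain Cd247 was also highest on control 2, at 45.6. It measured 5.56 and 12.2 on the other controls and 16.1, 10.2 and 4.91 in KO. A dimmer Cd247 probe past the filter was highest on control 3, at 6.71 against 6.52 on control 2.

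Other genes of T cell receptor signalling, from a list of 20, had probes for 18 and passed the filter for 14. Of these, 10 were lower and 4 higher in KO, with a median of -0.53, and 0 passed the adjusted threshold in limma and 0 had an unadjusted p under 0.05. The scavenger-family receptor Cd6 had log2 means of 5.78 ± 1.04 (SD, n = 3) for control and 4.31 ± 0.52 for KO, with KO 1 above control 3. Zap70, the kinase recruited to CD3, measured 5.51 ± 0.65 (SD, n = 3) and 4.74 ± 0.07, and was the 1 gene of the 14 whose groups did not overlap, a share near the 5.31% of all features below and 3.38% above. The transmembrane adaptor Trat1 went the other way, at 4.0, 2.36 and 1.25 in control and 3.89, 6.12 and 3.69 in KO. Sit1 was at the floor on KO 1 and KO 2. Lck, the kinase partner of Sh2d2a, had no probe under its symbol. The median was -0.79 without control 3, and between -0.34 and -0.31 without control 2, KO 2 or KO 3.

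Of 22 other cytotoxic and NK genes, 13 passed the filter, 8 lower and 5 higher in KO, with a median of -0.42, and 0 passed the adjusted threshold or an unadjusted p under 0.05. The granule protease Ctsw measured 6.92, 6.64 and 6.36 in control and 5.44, 5.58 and 6.05 in KO on the log2 scale, with no overlap and a difference of -0.95 with or without control 2. The chemokine Xcl1 measured 3.98, 5.05 and 5.09 in control and 1.48, 3.82 and 3.79 in KO, also without overlap. They were the 2 of the 13 genes with every KO array below every control array, beside 5.31% of all features. The NK receptor genes Cd96 and Ncr1 did not share that direction: Cd96 differed by 1.25 (0.60 without control 2), with control 2 at the floor, and Ncr1 by 1.14, with control 1 and control 2 at it. Gzmk differed by -1.37 and was at the floor on KO 3. Perforin, Prf1, measured 9.26, 10.17 and 7.42 in control and 8.80, 6.97 and 8.73 in KO, so its groups overlapped widely. Omitting control 2 gave a median of -0.17, omitting KO 2 gave -0.20, and omitting control 1, KO 1 or KO 3 gave -0.29 to -0.27.

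Genes that place or keep lymphocytes in the epithelium gave 13 of 20 past the filter, 10 of them lower, with a median of -0.78. None passed the adjusted threshold in limma, and 2 of the 13 had an unadjusted p under 0.05, beside 4.3% of all features. Ccr9, the receptor for the gut chemokine Ccl25, measured 2.24, 3.75 and 2.87 in control on the log2 scale and lay at the floor on each KO array (limma adjusted p = 0.400). H2-T3, which encodes the thymus leukaemia antigen bound by CD8 alpha chains, measured 2.32, 4.15 and 3.22 in control and 0.12, 2.60 and 0.49 in KO. Il15ra, which presents Il15 to these cells, differed by -2.01 with KO 3 at the floor, and S1pr1, an exit receptor of lymphocytes, was higher in KO with control 2 and control 3 at the floor.

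The direct partners of the measured genes followed in the same list. Itgb7 measured 6.71, 6.02 and 5.36 in control and 4.56, 5.43 and 5.75 in KO, a difference of -0.78 with overlap. Cdh1, which encodes E-cadherin, measured 10.04 ± 0.37 (SD, n = 3) and 9.79 ± 0.20 (difference -0.25, and -0.04 without control 2). Tnfrsf14, whose product binds Cd160, measured 2.41 and 2.49 on control 1 and control 3 and 1.33 on KO 2, and was at the floor on control 2, KO 1 and KO 3. Its mean log2 difference was -1.19, and -2.00 without control 2, so both rest on floor values. In limma the adjusted p of the genes named from these 3 lists, Ccr9 apart, lay between 0.940 and 0.947. The median of the list was -0.44 without KO 1 and -0.53 without KO 3.

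**Figure D3:**
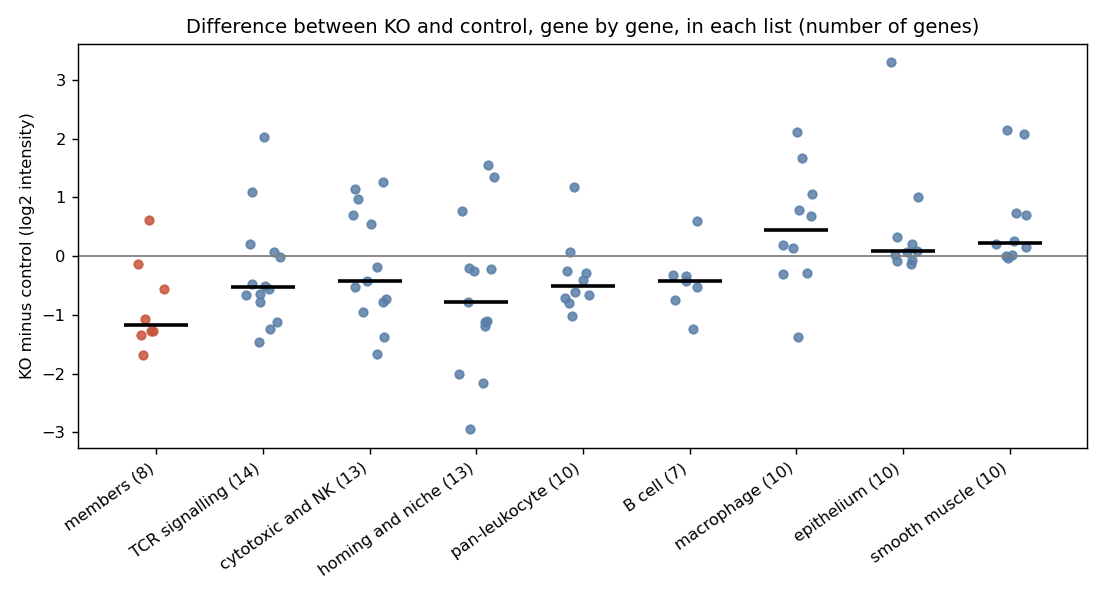
KO minus control in log2 intensity for each gene past the filter (points), by list, with the list median as a bar. The 8 genes of the set have a median of -1.17, with the dim Cd8a at 0.61 as the only point above 0, and the 3 T cell lists have medians of -0.53, -0.42 and -0.78 with points on both sides.

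Markers of the other cells in colon were summed up in the same way. The B cell list passed the filter for 7 of 12 genes, and it averaged a log2 intensity of 6.53 on control 1, 2.75 and 3.16 for the remaining controls, and 2.82 to 4.59 in KO. The B cell kinase gene Blk measured 5.83 on control 1, with both other controls at the floor. Cd79b, a chain of the B cell receptor, measured 8.65, 6.09 and 3.88 in control and 6.18, 5.55 and 3.17 in KO. Jchain and Mzb1 differed by -0.52 and -0.33, or by -0.25 and -0.75 without control 2. Jchain was not high on control 1, at 4.94 against 5.89 on control 2 and 5.19 on control 3. The B cell list median was -0.42, and 1.12 without control 1, -1.29 without control 2, and between -0.91 and -0.14 when another array was omitted. On control 1, the array with the highest B cell list mean, Cd3d, Cd3g, Sh2d2a and Nkg7 were also highest. The part of B cells in the result was not tested. Without control 1 these 4 genes differed by -1.13, 0.46, -1.52 and -0.91.

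Macrophage markers passed for 10 of 12 genes, and averaged 3.44 on control 2, whereas the remaining 5 arrays lay at 4.91 to 6.06. Lyz2 and Cx3cr1 were at the floor on control 2, and C1qc measured 1.41 there against 6.56 or more elsewhere. The list was not uniform, since Adgre1 and Cd163 were highest of all 6 arrays on control 2, at 4.34 and 5.10. Adgre1 differed by -1.39, with KO 1 at the floor. The list median of 0.44 became -0.27 without control 2 and 1.03 without control 1. Cd3g and the bright Trbv13-2 probe had their lowest values on control 2, whereas Itgae and Cd160 had their highest.

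Genes of most white blood cells, 10 of 10 past the filter, averaged 6.76, 4.54 and 5.49 in the controls, against 4.86, 5.75 and 5.13 in KO. These overlapped between the groups, and 8 of the 10 were lower in KO with a median of -0.51. Omitting control 1 gave a median of -0.09, omitting control 2 gave -0.84, and omitting KO 1 gave -0.30. Laptm5, a lysosomal membrane protein of these cells, measured 11.08, 10.35 and 10.08 in control and 9.59, 10.01 and 10.07 in KO, the 1 gene of the 10 with no overlap, near the 5.31% of all features. Coro1a and Cd52 were highest on control 1 at 9.94 and 10.19, and Arhgdib at 8.46.

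Set against the white blood cell mean of the same array, the 8 genes had a median difference of -0.82 between KO and control, and 6 were lower. On control 2, Rac2 and Cd53 of the 10 white blood cell genes were at the floor, which lowers that array's reference, and Cd8a was at the floor on the other controls. Without control 2 the median was -0.14 with 5 lower, without control 1 it was -1.25, and without KO 2 it was -0.53. Nkg7 was the 1 of the 8 genes with every KO array below every control array on this scale, beside 0.798% of all features below and 5.72% above. It was at 0.54, 1.36 and 1.00 in control and 0.52, -0.67 and 0.27 in KO. Sh2d2a differed by -1.33, and by -0.82 without control 2. Itgae differed by -1.0 on this scale but by -0.12 without control 2, and Cd160 by -0.73 and 0.18. With the reference formed from the 8 white blood cell genes above the floor on every array, a choice made after seeing the data, the median was -0.71, or -0.33 without control 2. Nkg7 and Sh2d2a were then the 2 genes without overlap, and without Cd8a the median was -0.81. The share of all features without overlap was not computed for this reference, so nothing is read from that count. The size of the difference on this scale thus depended on single arrays, control 2 above all.

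Epithelial markers were present on every array, with means of 10.68 to 11.71 in control and 11.43 to 11.64 in KO. Car1, a colonocyte enzyme, measured 8.85 and 8.11 on control 1 and control 2 and 13.68 on control 3, and between 13.38 and 13.73 in KO. Epcam and Krt20 differed by 0.32 and 0.21, or 0.26 and 0.13 without control 2, and Krt19 by 1.00, or -0.12 without control 2. Smooth muscle markers had means of 9.61, 9.90 and 10.42 in control and 10.08, 10.84 and 10.90 in KO, with 9 of 10 higher in KO and a median of 0.23. Without control 1 that median was -0.04, and other omissions gave 0.11 (KO 2) to 0.64 (control 2). Without control 2 all 10 were higher in KO. Myh11, Myl9 and Smtn lay above every control array on every KO array, 3 of 10 genes beside 3.38% of all features. Myh11 and Myl9 were lowest on control 2, at 6.17 and 6.08, and differed by 0.70 and 0.71 without it. Smtn differed by 0.71 and Mylk, whose groups overlapped, by 0.73. Myh11, Myl9 and Smtn were thus higher on the KO arrays, where Cd3d, Sh2d2a, Itgae, Cd160 and Nkg7 were lower. The other genes of the list differed by -0.03 to 0.25, and the list mean of control 3 lay above that of KO 1. In limma the adjusted p of the genes named from these 5 lists lay between 0.940 and 0.950, and their part in the differences of the T cell genes was not tested.

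**Figure D4:**
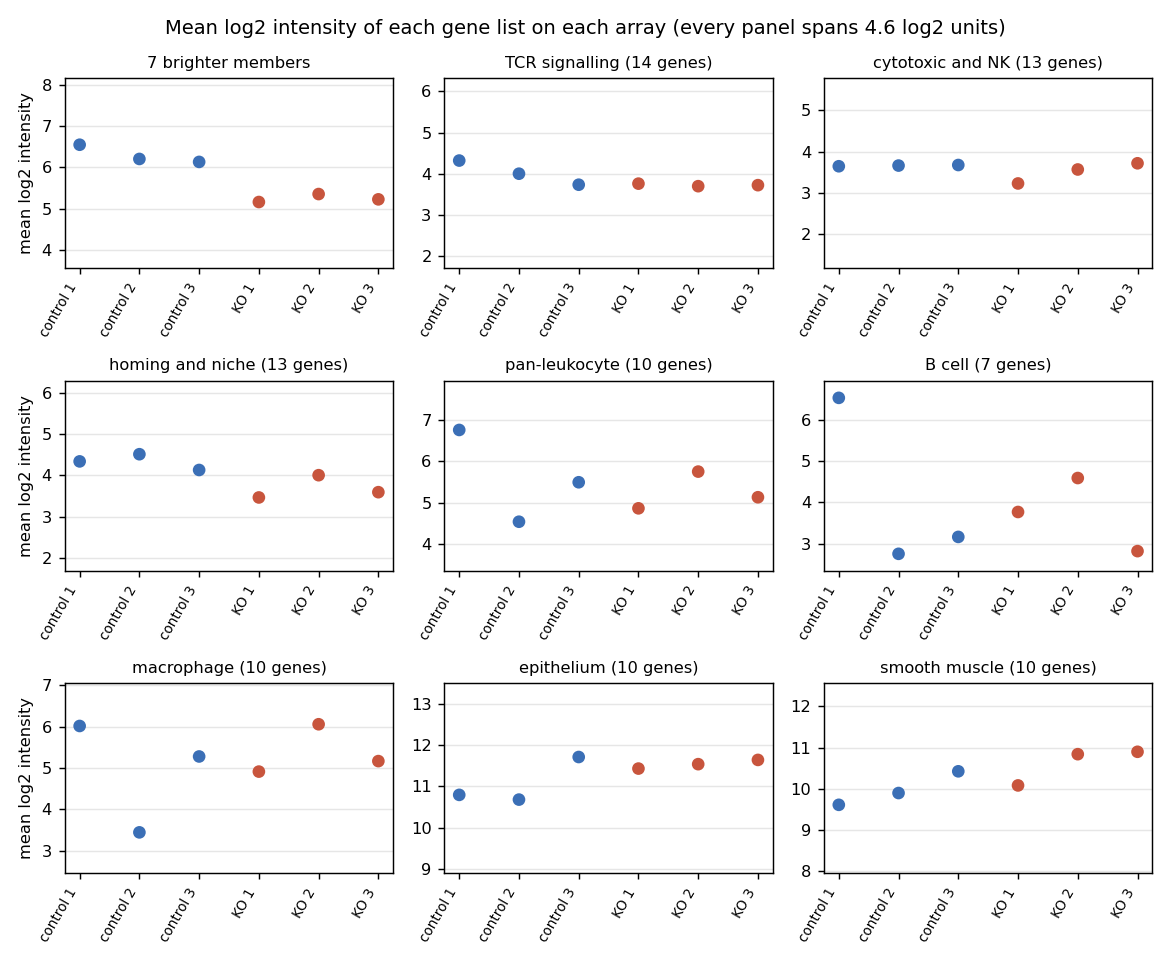
Mean log2 intensity on each control (blue) and KO (red) array for the 7 brighter genes of the set and for each list, every panel spanning the same range. The 7 genes are at 6.13 to 6.55 in control and 5.16 to 5.36 in KO, whereas the B cell mean is high on control 1 alone and the macrophage and white blood cell means are lowest on control 2.

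The nearest measured neighbours of the genes in the RefSeq gene table did not show a common direction. Beside Cd3g lies Ube4a, a ubiquitin ligase gene, at 1.56, 2.20 and 2.34 in control and 0, 0.27 and 0.42 in KO on the log2 scale, close to the floor (limma adjusted p = 0.474). Beyond Cd3e lies Mpzl2, which differed by 0.12 with a standard error of 1.15, and by 1.22 without control 2. Haspin, a kinase gene that lies within Itgae, measured 5.74 ± 1.00 (SD, n = 3) and 5.79 ± 0.42, a difference of 0.05, or -0.50 without control 2. Ncbp3 on the other side differed by -0.19, or -0.11 without control 2. Etfb, next to Nkg7, differed by 0.37 and Siglecg, on its other side, had arrays at the floor in both groups. Rnf115 and Pdzk1 beside Cd160 differed by 0.36 and 1.51, or by 1.06 and 2.04 without control 2, and Pdzk1 was highest on KO 1 at 7.10. Insrr and Prcc beside Sh2d2a were at the floor on control 2. Gpx8 and Gzmk flank Gzma; Gpx8 measured 4.76 and 5.55 on control 1 and control 3, the floor on control 2, and 6.07, 6.85 and 6.13 in KO.

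Cd3d, Cd3e and Cd3g together averaged 6.68, 5.74 and 6.18 in the controls, against 5.36, 5.69 and 5.58 in KO. Of 8619 named genes above the 70th percentile, the 5 with the most similar profile over the 6 arrays were Ece2, Wdr59, Gbp7, Sp100 and Atad5, with a Pearson r of 0.97, 0.95, 0.93, 0.93 and 0.93. With 6 arrays and that many candidates, values of this size are a description. Sp100, a nuclear body protein, measured 7.85, 5.85 and 6.08 in control and 4.12, 5.18 and 5.74 in KO, without overlap. Ece2 measured 7.29, 6.47 and 6.84 in control and 6.02, 6.55 and 6.49 in KO, and its groups overlapped through control 2.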

How the data were processed

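Total RNA of mouse colon was measured on Illumina bead arrays, 1 per sample, with 3 control and 3 Setd2 KO samples. The authors deposited normalized intensities on a linear scale for 45281 probes. Sources used here do not name their software or background correction. All arrays share 1 median and 1 maximum, and 1 is the lowest value. A table of unnormalized values was not used because its 12 columns carry no name of a sample.

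Intensities were log2 transformed with no offset. Probes were named from the platform annotation (34885 with 1 symbol, 18 with several, 10378 with none). Probes with a mean log2 above the 40th percentile (0.96) were kept, 27168 in all, and each gene was represented by its brightest probe, which left 18918 features, 14530 with a name. The contrast of KO with control was fitted by limma 3.58.1 under R 4.3.3 (lmFit, eBayes), 2-sided, adjusted by Benjamini-Hochberg over all features. A second fit over the 27168 probes gave standard errors per probe. On simulated data, known changes were set in features with a higher mean than most of the 10 genes have. There the fit recovered their size, but changes as large as those measured for these genes did not reach the adjusted threshold. Changes in dimmer features were not simulated. The number of arrays limits the precision.

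The 10 genes, the 8 lists (116 genes) and the rule for named genes were chosen with earlier results of these data known. The rule names all 10 genes, Setd2, the 4 genes of smallest p per list, direct partners, nearest measured neighbours and the 5 most similar profiles. A few further genes were named after their values were seen. Alternatives were other filters, an offset of 16, the mean over probes, further normalizations, eBayes options, array weights, the replicate number as a block and leaving out each array.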

Additional observations from a re-analysis of the deposited data

How the results depend on the processing

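Under 15 other settings the count of features past the adjusted threshold in limma stayed at 0 except with no filter on dim probes, where it was 11; of these, 10 were at the floor on every array of 1 group and 0 belonged to the 10 genes. Same-numbered control and KO arrays deviated from their group means with correlations of 0.16, -0.09 and 0.04. For arrays of unlike number these were -0.21 to 0.13. With 3 arrays per group such values cannot decide whether the numbers pair the samples. With the replicate block in limma 0 features were called (840 at an unadjusted p under 0.05, against 814). The median over the genes stayed at -1.17, because a balanced block leaves each group difference unchanged. That median was -0.89 with the mean of all passing probes and -0.93 with array weights, and leaving out each array gave -1.29 to -1.02. For the T cell receptor signalling list the median was -0.25 with no filter and -0.19 with an offset of 16, and -0.79 to -0.31 without each array. For the cytotoxic and NK list it was -0.19 with no filter, -0.66 above the 70th percentile and -0.10 with the offset, and -0.36 to -0.17 without each array. For the homing list it was -0.41, -0.23 and -0.25 under those settings and -0.18 with the mean of probes, and -0.88 to -0.44 without each array. Smooth muscle had a median of 0.69 with the mean of probes. The causes were not tested. Signal limits the rest: Cd8a, Gzmb and 4 Itgae probes lie at or near the floor.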
